A study of Mus musculus with 20 samples.

Results

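The RNA levels of 10 heat shock and chaperone genes were examined in the liver and kidney of mice given a chemical reprogramming cocktail or its solvent. The genes were chosen by symbol, and each of the 10 matched an Ensembl identifier among the 57010 genes of the count table. They are the inducible HSP70 genes Hspa1a and Hspa1b, the constitutive HSP70 gene Hspa8, the HSP110 gene Hsph1, the HSP40 gene Dnajb1, the HSP90 gene Hsp90aa1, the small heat shock protein gene Hspb1, the co-chaperone gene Bag3, and the mitochondrial chaperonin genes Hspd1 and Hspe1.

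Male UM-HET3 mice, 12 months old, carried a subcutaneous osmotic minipump for 28 days. UM-HET3 mice are the genetically heterogeneous offspring of a cross between inbred strains. Pumps of the 7c group delivered 0.1 mg/kg/day each of repsox (a TGF-beta receptor inhibitor), tranylcypromine (an inhibitor of the histone demethylase LSD1), DZNep (which lowers histone methylation by EZH2), CHIR99021 (a GSK3 inhibitor), forskolin (an activator of adenylyl cyclase) and TTNPB (a retinoic acid receptor agonist), with 1 mg/kg/day of the histone deacetylase inhibitor valproate. Pumps of the vehicle group held the solvent alone, DMSO and PEG300 in equal parts, so that both groups underwent surgery and received DMSO. Each tissue had 6 libraries of the 7c group and 4 of the vehicle group, made from polyadenylated RNA of the whole tissue, with a total of 27855849 to 64872451 counts per library. Levels are given as CPM (counts scaled to a common library size) on TMM-adjusted library sizes, which place the libraries of 1 tissue on a common scale.

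Heat shock proteins are molecular chaperones. HSP70 binds exposed hydrophobic stretches of unfolded proteins in a cycle started by HSP40 proteins and ended by nucleotide exchange factors such as HSP110 and BAG proteins, HSP90 receives clients from HSP70, small heat shock proteins hold unfolded proteins, and the HSP60-HSP10 chamber folds proteins imported into mitochondria. In stress, the transcription factor HSF1 binds heat shock elements, inverted repeats of the unit nGAAn, and the inducible genes rise steeply from a low level, whereas the constitutive genes are abundant in unstressed tissue.

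The promoters of 5 genes are shown because they hold paired units of the heat shock element motif, and because those of Hspa1a and Hspa1b are nearly identical. The first 4 are the 150 bases before the annotated start in GRCm39: Hspa1a at chr17:35191133-35191282 (minus strand), Hspa1b at chr17:35178215-35178364 (minus strand), Hsph1 at chr5:149559807-149559956 (minus strand) and Hspb1 at chr5:135916610-135916759 (plus strand). The last is the stretch of 107 bases between the starts of Hspd1 and Hspe1 at chr1:55127184-55127290, written on the Hspd1 strand. Capitals mark paired units, GAANNTTC (head to head) or TTCNNGAA (tail to tail).
Hspa1a: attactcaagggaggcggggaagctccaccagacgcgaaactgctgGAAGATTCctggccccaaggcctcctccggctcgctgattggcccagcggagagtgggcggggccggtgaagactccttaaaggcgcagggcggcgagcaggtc
Hspa1b: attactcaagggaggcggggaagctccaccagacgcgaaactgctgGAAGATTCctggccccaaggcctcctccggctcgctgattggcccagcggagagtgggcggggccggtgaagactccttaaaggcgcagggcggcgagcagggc
Hsph1: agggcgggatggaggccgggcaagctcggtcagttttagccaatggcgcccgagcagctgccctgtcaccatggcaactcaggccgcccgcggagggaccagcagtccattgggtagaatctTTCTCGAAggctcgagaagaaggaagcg
Hspb1: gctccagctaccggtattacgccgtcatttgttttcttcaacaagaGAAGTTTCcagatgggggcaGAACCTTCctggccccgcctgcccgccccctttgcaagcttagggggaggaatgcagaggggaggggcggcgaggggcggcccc
Hspd1: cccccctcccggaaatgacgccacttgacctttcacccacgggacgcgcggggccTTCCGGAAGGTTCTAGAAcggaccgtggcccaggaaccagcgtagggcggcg

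The window from 250 bases before to 50 bases after the start was searched on both strands, and the motifs can overlap. GAANNTTC was in the window of 6 of the 10 genes and in 7.41% of 21770 protein-coding promoters of the same length. TTCNNGAA was in 3 of the 10 and in 7.98% of all. At least 1 of these paired motifs was in 7 of the 10 and in 14.3% of all. The joined motif of 3 units, GAANNTTCNNGAA, was in 2 of the 10 and in 0.478% of all, and these 2 genes are Hspd1 and Hspe1, which share 1 stretch because their starts lie 108 bases apart on opposite strands. Neither paired motif occurred in the window of Hspa8, Hsp90aa1 or Bag3, and the match in Dnajb1 lay after the start, at positions 29 to 36. In Hspa1a, Hspa1b and Hspb1 a GAANNTTC match began at position -104, and Hspb1 had a second one at -84. A match is a run of letters, and binding was not measured.

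Hspa1a and Hspa1b lie 12918 bases apart on chromosome 17, each with a single exon, and 296 of their 300 window bases are identical. In the printed stretch they differ by T149G, counted from 1 at the 5′ end with the Hspa1a base first. Of the stretches of 100 bases in the annotated transcripts, 48.6% in Hspa1a and 49.9% in Hspa1b also occur in a transcript of another gene, mostly of each other. This share was 62.8% for Hspa8, 55.4% for Hspb1, 44.1% for Hsp90aa1, 26.9% for Hspd1 and 20.4% for Hspe1, in each case mainly with a pseudogene or a related copy, and 0% for Hsph1, Dnajb1 and Bag3. How the counting treated reads with several positions is not given in the sources used here, so the counts of the first 7 genes are less certain than those of the last 3.

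All 10 genes passed the filter on low counts in both tissues, and their levels per kilobase of transcript spanned a wide range. Over the 10 libraries of liver the order was Hspa8 at 254 ± 69.4 CPM per kilobase (SD), Hspe1 at 220.5 ± 44.1, Hspd1 at 193 ± 14.7, Hsp90aa1 at 56.4 ± 10.9, Bag3 at 15.9 ± 4.43, Hspb1 at 15.1 ± 5.81, Dnajb1 at 9.73 ± 3.01, Hsph1 at 9.52 ± 3.69, Hspa1b at 7.57 ± 5.65 and Hspa1a at 0.535 ± 0.536. The first 3 overlapped within their SD, as did the 5 from Bag3 to Hspa1b, while Hsp90aa1 and Hspa1a stood apart from their neighbours. Over the 10 libraries of kidney the order was Hspa8 at 783 ± 250.5 CPM per kilobase, Hspd1 at 268 ± 21.0, Hspe1 at 268 ± 59.8, Hsp90aa1 at 102 ± 18.7, Hsph1 at 22.4 ± 6.25, Bag3 at 15.6 ± 3.06, Dnajb1 at 15.4 ± 4.17, Hspb1 at 14.8 ± 6.34, Hspa1b at 10.5 ± 8.39 and Hspa1a at 5.73 ± 5.32. Hspd1 and Hspe1 overlapped within their SD, as did each neighbouring pair from Hsph1 to Hspa1a. In both tissues the constitutive and mitochondrial chaperones were the most abundant and the inducible HSP70 genes the least.

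**Figure D1:**
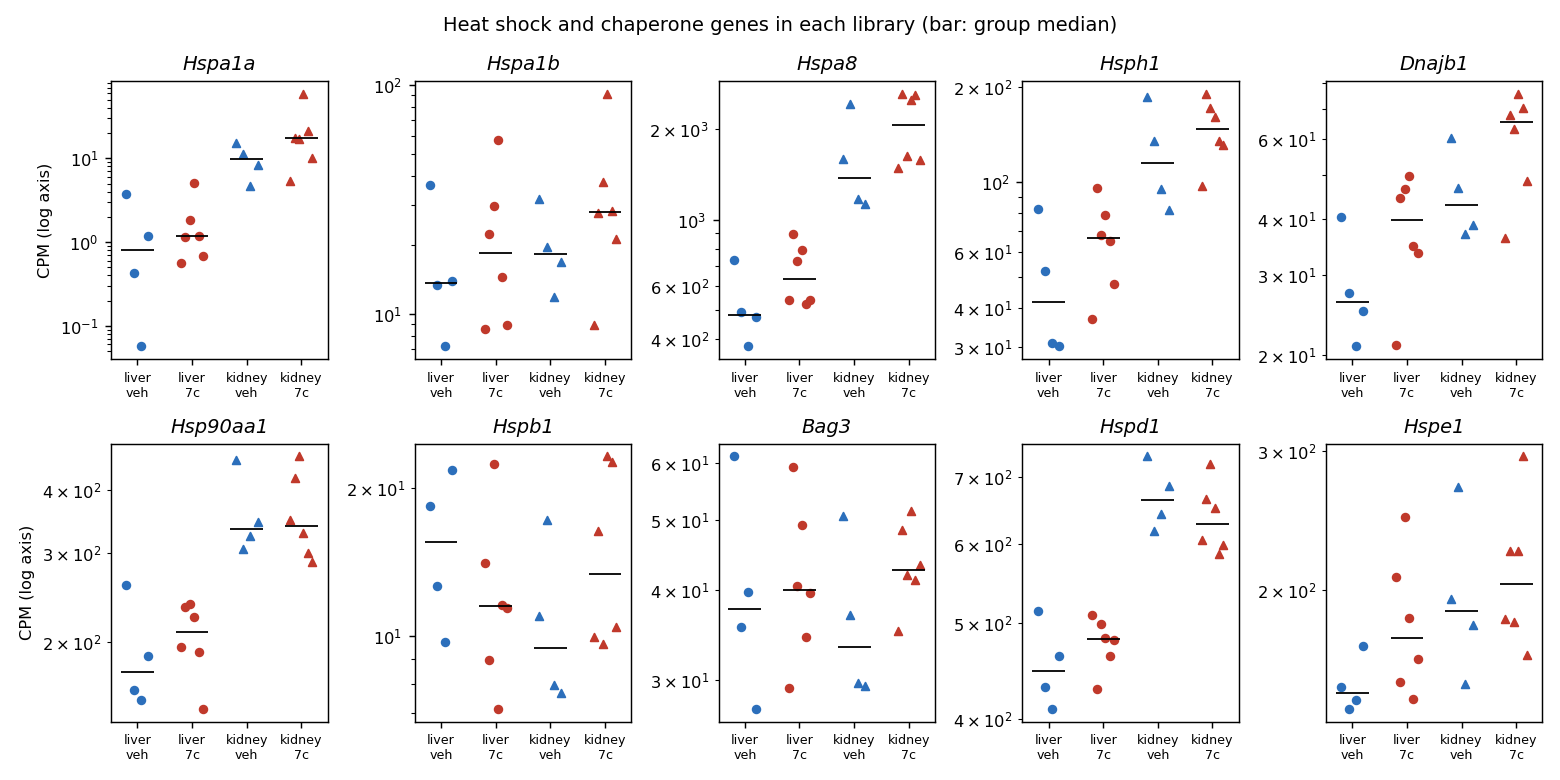
Level of each of the 10 genes in CPM on a log axis, 1 point per library, with circles for liver, triangles for kidney, blue for vehicle, red for 7c and a bar at the group median. The 7c and vehicle points of a tissue overlap in every panel, and 1 library of the 7c group is the highest kidney for Hspa1a (59.1 CPM) and Hspa1b (91.4 CPM).

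The first question was whether 28 days of 7c moved these genes. None of the 10 genes passed the test in either tissue. By edgeR's quasi-likelihood test with Benjamini-Hochberg adjustment, 0.00666% of the 15012 genes tested in liver (1 gene) and 0% of the 17749 genes tested in kidney passed, so that 0 of 10 is the background count too. At an unadjusted p under 0.05, 0 of the 10 members stood in each tissue, against 3.76% of all genes in liver and 2.61% in kidney. DESeq2 and limma-voom also called 0 of the 10. The log2 fold change lay above 0 for 9 of 10 genes in each tissue, with a median of 0.32 in liver and 0.32 in kidney. Over all genes tested, 50.4% in liver and 49% in kidney lay above 0, with medians of 0.002 and -0.006. The 7c and vehicle values did not separate for any of the 10 genes in liver or in kidney, where 0.719% and 0.716% of all genes tested did. Because several members varied together between libraries, the 9 are not separate observations.

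Hspa1a, an inducible HSP70 gene, had the largest fold change of the 10 in kidney. The 4 vehicle kidneys, replicates 1 to 4 here and in each list of 4 values, had 15.2, 11.1, 4.71 and 8.41 CPM, and the 6 7c kidneys ran from 5.30 over a median of 17.4 to 59.1 CPM. Of these 6 values, 4 were above every vehicle value, and the groups overlapped. The log2 fold change was 1.14 (95% interval -0.07 to 2.35), with an unadjusted p of 0.0618 and an adjusted p of 0.997 by edgeR's quasi-likelihood test. A two-sided exact permutation test of mean log2 CPM gave p = 0.2, where 6 against 4 can reach 0.00952 at the lowest. The log2 fold change was 0.53 without 7c replicate 4 and 1.43 without vehicle replicate 1, the lowest and the highest with 1 library left out.

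In liver, Hspa1a was counted at 2 to 148 reads per library. The 4 vehicle livers had 3.79, 0.430, 0.0568 and 1.17 CPM, the lowest resting on 2 counts, and the 6 7c livers ran from 0.557 over 1.18 to 5.01 CPM. The groups overlapped over nearly their whole range. The log2 fold change was 0.36 (95% interval -1.43 to 2.15), an interval that holds a fall as well as a rise of more than 2-fold. The estimate turned to -0.32 without 7c replicate 4 and to -0.04 without vehicle replicate 3, and rose to 1.65 without vehicle replicate 1. With DESeq2 it was 0.36, with limma-voom 1.20 and with the replicate number as a block 1.41.

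Hspa1b, the second inducible HSP70 gene, was the more abundant of the pair in both tissues. In kidney the vehicle values were 31.8, 19.7, 11.9 and 16.8 CPM, and the 7c values ran from 8.92 over 27.8 to 91.4 CPM. In liver the vehicle values were 36.4, 13.4, 7.22 and 13.9 CPM, and the 7c values ran from 8.59 over 18.4 to 57.1 CPM. The highest value in each tissue was 7c replicate 4, the lowest kidney was 7c replicate 1 and the lowest liver vehicle replicate 3, so the groups overlapped. Its log2 fold change was 0.84 in kidney (95% interval -0.26 to 1.93) and 0.41 in liver (-0.74 to 1.56), which became 0.30 and -0.07 without 7c replicate 4, and 1.15 and 1.03 without vehicle replicate 1.

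Dnajb1 encodes the HSP40 protein that delivers clients to HSP70. Its 4 vehicle livers had 40.4, 27.4, 20.9 and 25.03 CPM, and the 7c livers ran from 21.0 over 39.7 to 49.8 CPM. The 4 vehicle kidneys had 60.3, 46.8, 37.1 and 38.8 CPM, and the 7c kidneys ran from 36.3 over 65.5 to 75.6 CPM. In each tissue vehicle replicate 1 sat among the 7c values and 7c replicate 1 among the vehicle values or below. Fold changes on the log2 scale were 0.43 in liver (95% interval -0.06 to 0.93, unadjusted p = 0.0809) and 0.40 in kidney (-0.05 to 0.85, unadjusted p = 0.0793) by edgeR's quasi-likelihood test. With 1 library left out they ran from 0.31 to 0.65 and from 0.31 to 0.56.

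Hspa8, the constitutive HSP70, was the most abundant of the 10 per kilobase. The vehicle livers had 734.5, 492, 378 and 474 CPM, and the 7c livers ran from 522 over 634 to 894 CPM. The vehicle kidneys had 1593, 2429, 1168 and 1130 CPM, and the 7c kidneys ran from 1484 over 2068 to 2629 CPM. Every 7c value was above the 3 lowest vehicle values in liver, but the highest vehicle value lay within the 7c range in both tissues. For Hspa8 the log2 fold change was 0.36 in liver (95% interval -0.06 to 0.79) and 0.39 in kidney (-0.15 to 0.93). With 1 library left out it ran from 0.24 (without vehicle replicate 3) to 0.58 (without vehicle replicate 1) in liver and from 0.26 (without vehicle replicate 4) to 0.68 (without vehicle replicate 2) in kidney.

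Hsph1, the HSP110 exchange factor, ran from 30.2 to 82.1 CPM in vehicle livers and from 37.0 to 95.8 CPM in 7c livers, with a log2 fold change of 0.42 (95% interval -0.22 to 1.06), which ran from 0.25 without vehicle replicate 4 to 0.79 without vehicle replicate 1. In kidney it ran from 81.8 to 186 CPM in vehicle and from 97.3 to 190 CPM in 7c, with a log2 fold change of 0.25 (-0.26 to 0.75), which ran from 0.09 without vehicle replicate 4 to 0.51 without vehicle replicate 1. Hsp90aa1, the stress-inducible cytosolic HSP90, had a log2 fold change of 0.11 in liver (-0.24 to 0.46) and 0.00 in kidney (-0.35 to 0.36), and with 1 library left out it ran from 0.02 to 0.29 and from -0.09 to 0.14. Its group means in kidney were 359 ± 70.8 CPM with 7c (SD, n = 6) and 358 ± 68.8 CPM with vehicle (SD, n = 4).

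Bag3, a co-chaperone that links HSP70 and small heat shock proteins to autophagy, had a log2 fold change of 0.04 in liver (95% interval -0.44 to 0.51) and 0.25 in kidney (-0.11 to 0.61), and with 1 library left out it ran from -0.11 to 0.30 and from 0.16 to 0.44. Hspb1 was the exception to the common sign in liver. Its vehicle livers had 18.4, 12.7, 9.72 and 21.8 CPM and its 7c livers ran from 7.11 over 11.5 to 22.4 CPM, with a log2 fold change of -0.31 (-0.94 to 0.32). In kidney its log2 fold change was 0.48 (-0.21 to 1.17), from 10.96 ± 4.43 CPM with vehicle to 15.3 ± 6.31 CPM with 7c (SD, n = 4 and 6). With 1 library left out, Hspb1 ran from -0.55 (without 7c replicate 3) to -0.11 (without vehicle replicate 4) in liver and from 0.33 (without 7c replicate 4) to 0.79 (without vehicle replicate 2) in kidney.

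Hspd1, the HSP60 subunit of the mitochondrial chaperonin, was measured with the narrowest interval of the 10 genes in each tissue. It had 514, 431, 410 and 463 CPM in the vehicle livers and 429 over 482 to 509 CPM in the 7c livers. In kidney the vehicle values were 734, 618, 642 and 685 CPM, and the 7c values ran from 586 over 628 to 720 CPM. Below every vehicle kidney lay 3 7c kidneys, and 0 lay above. The log2 fold change was 0.07 in liver (95% interval -0.12 to 0.26) and -0.07 in kidney (-0.29 to 0.15), so that a change of more than 1.20-fold upward in liver or 1.11-fold upward in kidney lies outside these intervals. Hspe1, the HSP10 lid, had a log2 fold change of 0.28 in liver (-0.03 to 0.58, unadjusted p = 0.0739) and 0.09 in kidney (-0.32 to 0.50). With 1 library left out, the liver value ran from 0.03 to 0.14 for Hspd1 and from 0.18 to 0.34 for Hspe1, and the kidney value from -0.11 to -0.02 for Hspd1 and from -0.03 to 0.28 for Hspe1. Hspd1 and Hspe1 overlap in the annotation on opposite strands, and the strand setting of the counting is not given in the sources used here.

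**Figure D2:**
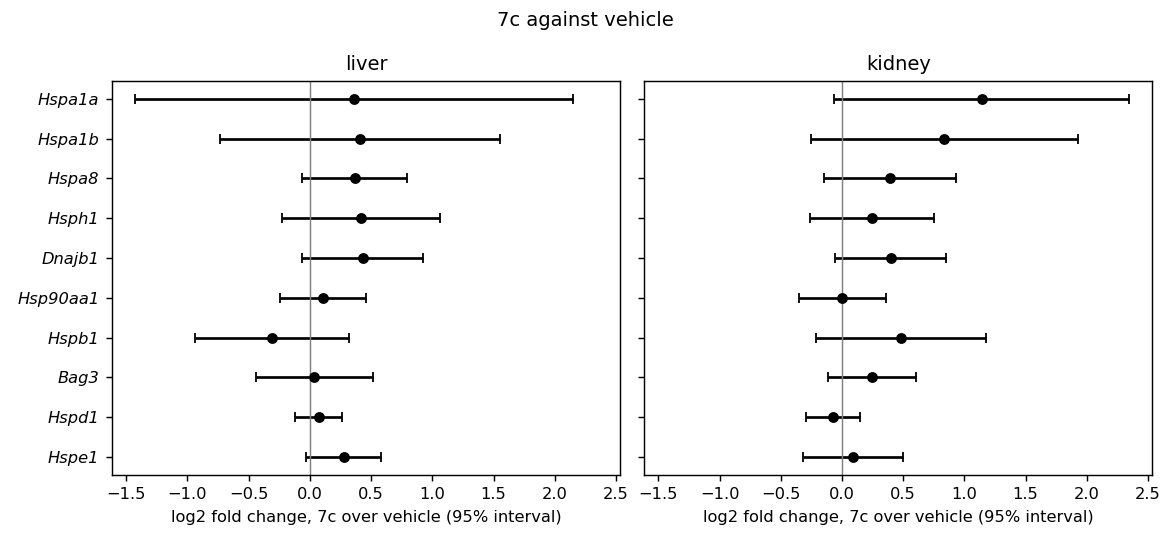
Log2 fold change of 7c over vehicle for the 10 genes in liver (left) and kidney (right), points with 95% intervals from edgeR's quasi-likelihood fit, and a vertical line at 0. Every interval includes 0, and the intervals are widest for Hspa1a (-1.43 to 2.15 in liver) and narrowest for Hspd1 (-0.12 to 0.26 in liver).

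Whether the 7c effect differed between the tissues was tested as an interaction over 14163 genes, those kept by the filter on low counts in each tissue. None of the 10 genes passed, against 0.00706% of all genes (1 gene), and 0 of the 10 had an unadjusted p under 0.05. The lowest unadjusted p belonged to Hspb1, whose effect was lower in liver than in kidney by a log2 difference of -0.81 (95% interval -1.79 to 0.18, unadjusted p = 0.103, adjusted p = 1.00 by edgeR's quasi-likelihood test). For Hspa1a the difference was -0.78 (-2.92 to 1.36), an interval too wide to separate equal effects from opposite ones.

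Markers of other cell types were read beside the treatment comparison, and 0 of them passed in either tissue. In kidney, the summed level of 6 adipocyte markers was 37.1 to 49.5 CPM in vehicle kidneys and 57.3 to 149.5 CPM in 7c kidneys, which did not overlap, and all 6 (Adipoq, Plin1, Cidec, Lep and others) had an unadjusted p under 0.05. Of the 4 hepatocyte markers tested in kidney, 3 had an unadjusted p under 0.05 and all 4 a log2 fold change below 0, with summed levels of 205 to 292 CPM in vehicle and 78.7 to 325 CPM in 7c, which overlapped. In liver, skeletal muscle markers summed to 661 CPM in 7c replicate 6 and to at most 1.79 CPM in the other 9 livers. Total counts in liver were lower with 7c (28383359 to 30571119) than with vehicle (31670440 to 34153084). The part of these differences in the members' values was not tested. In whole tissue, a change in the share of a cell type and a change of RNA per cell cannot be told apart.

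The inducible HSP70 genes differed strongly between libraries of the same group. Their SD of log2 CPM around the group means in liver was 1.55 for Hspa1a and 1.02 for Hspa1b, and in kidney 1.01 and 0.935. The 500 genes nearest in mean level had median SDs of 0.677, 0.225, 0.275 and 0.248. Placed among those 500 genes, Hspa1a was at percentile 96.2 in liver and 99.2 in kidney, and Hspa1b at percentile 99.2 in liver and 100 in kidney.

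The cytosolic partners followed with smaller spreads. In liver, Hsph1 had an SD of 0.575 (percentile 96.8), Hspb1 of 0.549 (95.2), Dnajb1 of 0.438 (94.8), Bag3 of 0.412 (95), Hspa8 of 0.362 (89) and Hsp90aa1 of 0.294 (90.6). In kidney, Hspb1 had an SD of 0.571 (percentile 96.4), Hspa8 of 0.445 (86.6), Hsph1 of 0.424 (88.2) and Dnajb1 of 0.373 (87), while Bag3 at 0.271 (59.2) and Hsp90aa1 at 0.27 (57.6) were near the middle. Hspd1 was the opposite case, with SDs of 0.111 in liver (percentile 15.2) and 0.112 in kidney (13.8), and Hspe1 lay between at 0.242 (83.2) and 0.321 (68.8). A difference of 1.08-fold for Hspd1 and of 2.93-fold for Hspa1a in liver is the size of 1 such SD. These percentiles are a description, since the 500 genes are not replicates.

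**Figure D3:**
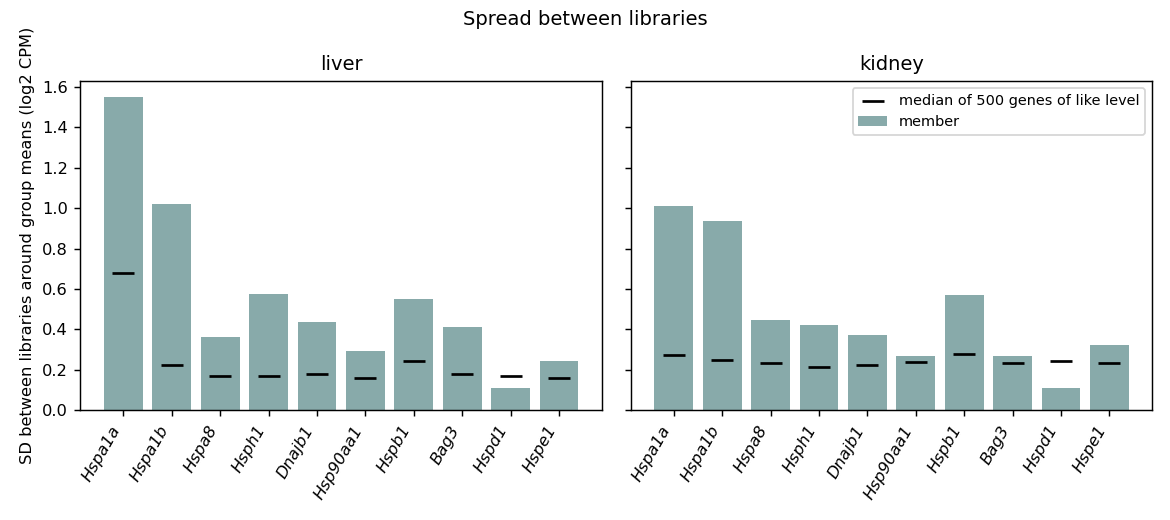
SD of log2 CPM between libraries around the group means for each gene (bars from 0), in liver (left) and kidney (right), with a dash at the median SD of the 500 genes nearest in mean level. The bars of Hspa1a (1.55 in liver) and Hspa1b (1.02 in liver) are far above the dash and those of Hspd1 (0.111 and 0.112) are below it.

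Several cytosolic members varied together. The summed counts of Hspa1a and Hspa1b, which do not depend on how reads are divided within the pair, were compared with each of the other 8 genes over the 10 libraries of a tissue, 16 relations in all. After Benjamini-Hochberg adjustment of the permutation p over the 16, 7 relations passed by Pearson's r, 4 in liver and 3 in kidney, and 5 passed by Spearman's rho. The sum was not compared with genes outside the 10, so the share of all genes that follow it is not known. Mean scaled levels of other chaperone lists were set against that of the 10 members. Pearson's r in liver and kidney was 0.821 and 0.479 for endoplasmic reticulum chaperones and 0.751 and 0.875 for HSP90 partners. For the mitochondrial list it was 0.065 and 0.384.

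Dnajb1 followed the HSP70 sum most closely. In liver r was 0.861 (permutation p = 0.00161, adjusted p = 0.0129) and rho 0.915 (adjusted permutation p = 0.00408). In kidney r was 0.906 (permutation p = 3e-05, adjusted p = 0.00048) and rho 0.939 (adjusted permutation p = 0.0024). Without the 2 libraries farthest from the median of the sum, r was 0.85 in liver and 0.942 in kidney. Within the 6 7c libraries, r was 0.85 in liver (exact permutation p = 0.025) and 0.892 in kidney (exact permutation p = 0.00972).

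In liver, Hspa8 (r = 0.821, adjusted permutation p = 0.0182; rho = 0.721, adjusted p = 0.0611), Hsp90aa1 (r = 0.82, adjusted p = 0.0182; rho = 0.782, adjusted p = 0.038) and Hsph1 (r = 0.776, adjusted p = 0.026; rho = 0.794, adjusted p = 0.038) passed by Pearson's r. Without 7c replicate 4 and vehicle replicate 1, the 2 libraries farthest out, their r was 0.795, 0.826 and 0.742. Within the 6 7c livers r was 0.771, 0.725 and 0.76, with exact permutation p-values of 0.0806, 0.0889 and 0.0792. Bag3 did not pass in liver (r = 0.622, adjusted p = 0.0882), and its r was 0.387 without those 2 libraries. Hspb1 did not pass either (r = -0.0182, adjusted permutation p = 0.96; rho = 0.0182, adjusted p = 0.973), and its r was 0.403 without them.

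In kidney, Bag3 (r = 0.779, adjusted permutation p = 0.0194; rho = 0.77, adjusted p = 0.038) and Hsph1 (r = 0.71, adjusted p = 0.0435; rho = 0.685, adjusted p = 0.0713) passed by Pearson's r. Without 7c replicates 4 and 1, their r was 0.816 and 0.822. Within the 6 7c kidneys r was 0.851 and 0.699, with exact permutation p-values of 0.0514 and 0.128. Hspb1 (r = 0.681, adjusted p = 0.0516) and Hspa8 (r = 0.634, adjusted p = 0.0799) missed the threshold, and Hsp90aa1, which passed in liver, had r = 0.197 (adjusted p = 0.631), and r = 0.536 without the 2 libraries farthest out. The difference between the tissues in these correlations was not tested.

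The mitochondrial pair did not pass in either tissue. For Hspd1 r was 0.414 in liver and 0.274 in kidney (adjusted permutation p = 0.309 and 0.553), and for Hspe1 it was 0.252 and 0.443 (adjusted permutation p = 0.561 and 0.292). Correlations within the vehicle group, of 4 libraries per tissue, were not computed.

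**Figure D4:**
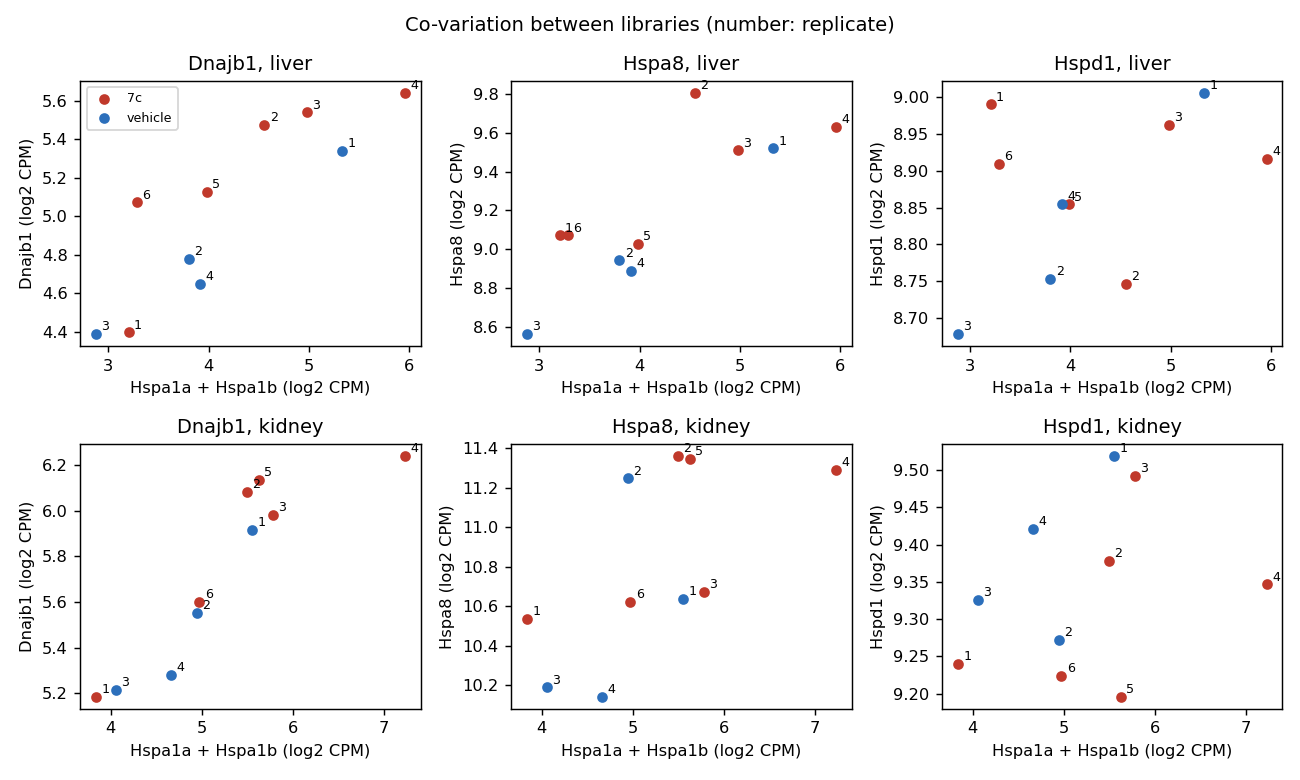
Log2 CPM of Dnajb1, Hspa8 and Hspd1 against that of the Hspa1a and Hspa1b sum in liver (top) and kidney (bottom), 1 point per library with its replicate number, red for 7c and blue for vehicle. Dnajb1 rises with the sum in both tissues (r = 0.861 and 0.906), whereas the Hspd1 points show no clear order (r = 0.414 and 0.274).

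The libraries with the highest mean level of the 10 genes carried the same numbers in both tissues. In liver the 4 highest mean scaled levels of the 10 genes were vehicle replicate 1 (0.93), 7c replicate 3 (0.917), 7c replicate 4 (0.73) and 7c replicate 2 (0.412), and the lowest was vehicle replicate 3 (-1.22). In kidney the 4 highest were 7c replicate 4 (0.992), 7c replicate 2 (0.728), vehicle replicate 1 (0.56) and 7c replicate 3 (0.429), with 7c replicate 5 close behind (0.424), and the lowest was vehicle replicate 3 (-1.07). The labels do not say that a liver and a kidney with the same number came from 1 mouse, so this is a description of the libraries.

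The untreated level by tissue was compared between the 4 vehicle livers and the 4 vehicle kidneys, on a CPM scale fitted over these 8 libraries. Of the 10 genes, 4 passed edgeR's quasi-likelihood test, 2 higher in liver and 2 higher in kidney. The background is wide: 53.4% of the 17245 genes tested passed, 25.7% higher in liver and 27.7% higher in kidney, so 4 of 10 is near or below the share of all genes. The 4 livers and 4 kidneys did not separate fully for any of the 10 genes, against 53.2% of all genes. For each of the 4 genes that passed, the two-sided exact permutation test gave p = 0.0571, where 4 against 4 can reach 0.0286 at the lowest.

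Hspa1a was higher in kidney. The livers had 4.76, 0.553, 0.0700 and 1.44 CPM and the kidneys 12.2, 9.08, 3.79 and 6.79 CPM, with vehicle replicate 1 of liver above the lowest kidney. The log2 ratio of liver to kidney was -2.24 (SE 0.82, adjusted p = 0.0388 by edgeR's quasi-likelihood test), a level 4.72-fold higher in kidney. With 1 library left out, the log2 ratio ran from -1.82 without vehicle liver replicate 3 to -3.52 without vehicle liver replicate 1. The call was lost without any 1 of vehicle liver replicates 2 and 4 or vehicle kidney replicates 1, 2 and 4 (adjusted p 0.0561 to 0.0931).

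Hspa8 was also higher in kidney. The livers had 921, 632, 465 and 583 CPM and the kidneys 1281, 1984, 939 and 913 CPM, where the highest liver was above the lowest kidney alone. The log2 ratio was -0.98 (SE 0.28, adjusted p = 0.0132 by edgeR's quasi-likelihood test), a level 1.97-fold higher in kidney, and it passed with each library left out.

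Hspb1 and Bag3 were higher in liver. For Hspb1, the livers had 23.1, 16.3, 12.0 and 26.8 CPM and the kidneys 8.83, 14.1, 6.41 and 6.20 CPM, with a log2 ratio of 1.14 (SE 0.32, adjusted p = 0.0108 by edgeR's quasi-likelihood test). For Bag3, the livers had 76.9, 45.8, 49.0 and 33.7 CPM and the kidneys 40.8, 30.2, 23.9 and 23.8 CPM, with a log2 ratio of 0.79 (SE 0.26, adjusted p = 0.0234 by the same test). For each gene 3 of 4 livers were above every kidney and 1 overlapped. In the 7c libraries the Hspb1 ratio was 0.33 (adjusted p = 0.323), and Bag3 lost its call without vehicle liver replicate 1 or vehicle kidney replicates 2, 3 or 4 (adjusted p 0.0618 to 0.0771).

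The tissue comparison depended on the scaling between tissues. On library totals with no scaling factor the median log2 ratio of all genes moved from -0.058 to -0.656, Hspb1 fell to 0.56 (adjusted p = 0.119) and Bag3 to 0.18 (adjusted p = 0.545). The higher kidney levels of Hspa1a and Hspa8 passed on that scale as well. The other 6 genes did not pass on the TMM scale, with log2 ratios of -0.71 for Hsph1, -0.28 for Hsp90aa1, -0.06 for Dnajb1, 0.07 for Hspd1, 0.23 for Hspe1 and 0.46 for Hspa1b. Hsph1 passed as higher in kidney with no filter (adjusted p = 0.0489 by edgeR), with DESeq2 (adjusted p = 0.0444), in the 7c libraries (adjusted p = 0.028 by edgeR) and without vehicle liver replicate 1 (adjusted p = 0.0187 by edgeR). It also passed with the replicate number as a block, which is given further below because the labels do not state that equal numbers are 1 mouse. Hspe1 passed as higher in liver in the 7c libraries (log2 ratio 0.40, adjusted p = 0.0325 by edgeR) and without vehicle kidney replicate 2 (0.32, adjusted p = 0.0387 by edgeR). On library totals the signs of Hspd1, Hspe1 and Hspa1b turned negative, and Hsph1, Dnajb1, Hsp90aa1 and Hspd1 passed as higher in kidney.

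The pair Hspa1a and Hspa1b was divided differently in the tissues. Of the reads counted on either gene, Hspa1a held 0.781% to 9.43% in the 10 livers (median 6.59%) and 28.4% to 43.1% in the 10 kidneys (median 34.8%), with no overlap between tissues. In the vehicle liver with the lowest share, 2 of 256 reads were on Hspa1a (exact 95% interval 0.0948% to 2.79%), and in the 7c kidney with the highest share 680 of 1578 were (40.6% to 45.6%), where the intervals cover counting error only. For this share the scaling between tissues has no bearing. Summed to 1 gene, the pair had a log2 ratio of liver to kidney of -0.02 on the TMM scale (adjusted p = 0.981 by edgeR's quasi-likelihood test). That ratio does depend on the scaling. Reads from the stretches that both transcripts share cannot be assigned by sequence alone.

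**Figure D5:**
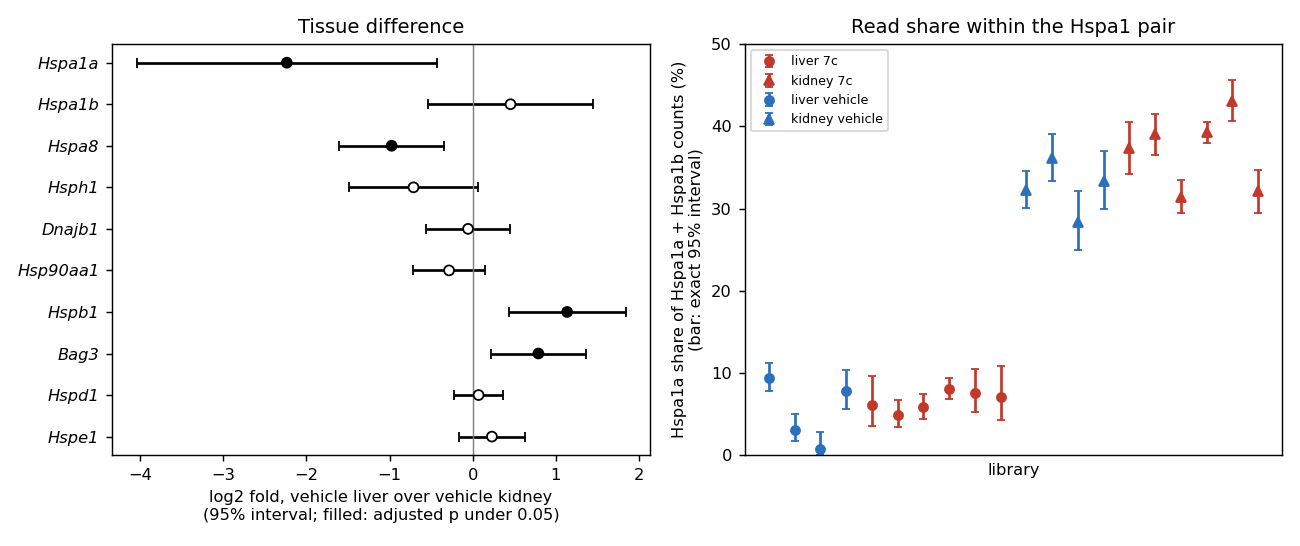
Left, log2 ratio of vehicle liver to vehicle kidney for the 10 genes with 95% intervals, filled where the adjusted p passed 0.05 (Hspa1a -2.24, Hspa8 -0.98, Hspb1 1.14 and Bag3 0.79). Right, percent of the reads of the Hspa1 pair counted on Hspa1a in each library with exact 95% intervals, at most 9.43% in liver (circles) and at least 28.4% in kidney (triangles).

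The wider chaperone network was read from lists of further genes. With 7c, 0 genes of any of these lists passed in either tissue. In liver the other cytosolic HSP70 genes and partners had 12 of 23 log2 fold changes above 0 (median 0.04), the HSP90 partners 9 of 17 (0.03), the chaperonin CCT 5 of 8 (0.04), prefoldin 5 of 6 (0.13), the mitochondrial chaperones and proteases 9 of 15 (0.05) and the chaperones of the endoplasmic reticulum 11 of 17 (0.01). In kidney these were 15 of 22 (0.06), 15 of 17 (0.11), 5 of 8 (0.06), 5 of 6 (0.11), 6 of 15 (-0.02) and 13 of 17 (0.04). The other small heat shock proteins had 2 of 3 tested above 0 in liver (median 0.18) and 5 of 6 in kidney (0.27), and the heat shock factors and their regulators 2 of 4 (0.00) and 3 of 4 (0.08). The medians thus ran from -0.02 in the mitochondrial list to 0.27 in the small heat shock proteins, both in kidney, beside 0.32 for the 10 members, and no difference between lists was tested.

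Single genes of these lists came nearest to the threshold without reaching it. In liver they were Fkbp5, a glucocorticoid-induced HSP90 partner (log2 fold change 0.45, unadjusted p = 0.0212, adjusted p = 1.00 by edgeR), Hscb of iron-sulfur cluster assembly (0.54, unadjusted p = 0.0501), Hsbp1, which binds HSF1 (0.17, unadjusted p = 0.0621), and Pfdn1 (0.21), Dnajb2 (0.16), P4hb (0.15), Cct3 (0.12) and Cryab (0.49). The liver of 7c replicate 6, with 661 CPM of skeletal muscle markers, also had the highest mean scaled level of the other small heat shock proteins (1.22), and the part of muscle RNA in the Cryab value was not tested. In kidney they were Hspb2, a small heat shock protein of muscle (1.65, unadjusted p = 0.0219, adjusted p = 0.997 by edgeR), Stub1, the ubiquitin ligase CHIP that works with HSP70 (0.27, unadjusted p = 0.0404), and Clpx (-0.33), Ahsa1 (0.20), Serpinh1 (0.20), Pfdn2 (0.16), Cct2 (0.09) and Hsbp1 (0.08). Skeletal muscle markers summed to 1.18 to 2.01 CPM in vehicle kidneys and 1.32 to 4.43 CPM in 7c kidneys, and smooth muscle markers to 66.1 to 118 and 77.2 to 143 CPM, and their part in the Hspb2 value was not tested. Hsf1 itself, the master regulator, had log2 fold changes of -0.03 in liver and 0.07 in kidney.

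Between the vehicle tissues the lists differed in direction. Of 17 chaperones of the endoplasmic reticulum, which fold secreted proteins, 15 passed, 13 higher in liver, with log2 ratios of 1.75 for Pdia6, 2.82 for Sdf2l1 and 1.47 for Hsp90b1, and the list's median was 1.23. Of the other small heat shock proteins, 5 of 5 tested passed, with Hspb8 higher in liver (4.87) and Cryab (-3.11) and Cryaa (-7.85) higher in kidney. Both shares stand above the 53.4% of all genes, with no test of the list. Among the lists that follow, that of the heat shock factors was also above that share, and the HSP70 partners, HSP90 partners, CCT, prefoldin and mitochondrial lists were below it.

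Among the heat shock factors and their regulators 3 of 5 passed: Hsf2 (1.78) and Hsf4 (2.37) were higher in liver and Hsf1 (-0.63) in kidney. Of the other HSP70 genes and partners 12 of 23 passed, 8 higher in liver, with Bag4 (1.27) and Dnajb2 (1.09) higher in liver and the exchange factor Bag2 (-1.60) in kidney. Of the HSP90 partners 5 of 17 passed, including Fkbp5 (-2.17), Ppid (1.08) and Ahsa2 (1.16). The chaperonin CCT had 2 of 8 (Tcp1 at 0.77 and Cct8 at 0.60), prefoldin 2 of 6 (Vbp1 at -0.64 and Pfdn1 at -0.80), and the mitochondrial list 6 of 15, among them the protease genes Clpx (1.503), Yme1l1 (0.83) and Spg7 (-0.88). Hepatocyte markers passed 5 of 5 toward liver and kidney tubule markers 7 of 7 toward kidney, which is what the tissue labels say.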

How the data were processed

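Liver and kidney RNA was measured in 20 libraries, 6 of the 7c group and 4 of the vehicle group per tissue. The authors made stranded libraries of polyadenylated RNA, mapped reads to GRCm39 with STAR 2.7.11b and counted them with featureCounts 2.0.6, and the deposited values are raw counts per gene, with no normalization. Read length, annotation release, strand setting and the treatment of reads with several positions are not given in the sources used here. The labels call the samples biological replicates.

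Symbols, positions and transcript lengths came from GENCODE vM39, which matched 56310 of 57010 identifiers and all 10 members. A gene was tested where 50% or more of the libraries compared held 10 counts or more, with TMM and edgeR 4.0.16 (quasi-likelihood F-test, package defaults, R 4.3.3), Benjamini-Hochberg adjustment over all genes tested and a threshold of 0.05. Treatment was the single term per tissue. The interaction was fitted over 4 group means of the 20 libraries. Log2 CPM used a prior count of 2. Correlations used 100000 permutations, and other permutation tests were exact and two-sided. CPM per kilobase used the canonical transcript. Depth limits Hspa1a in liver (2 to 148 counts). The count test and the correlations were tested on simulated data.

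The members and the lists were chosen with earlier results of these data known. The text names the 10 members, up to 3 genes per list past the threshold (or else the one with the lowest unadjusted p), and per tissue the 5 genes most correlated with the members. Hsf1 under treatment was named outside this rule, after its values were seen. The adipocyte markers Adipoq, Plin1, Cidec and Lep in kidney were also named outside it. Alternatives were RLE size factors, no filter, edgeR's filterByExpr, DESeq2 1.42.0, limma-voom (limma 3.58.1), a replicate block, both tissues in 1 fit, Hspa1a and Hspa1b summed, the 7c samples for the tissue comparison, and leaving out each library. Library totals with no scaling factor, and log2 CPM in Dixon's test, were added after the data were seen.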

Additional observations from a re-analysis of the deposited data

Results flagged for a closer look

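Of the members' values, 3 stood far from the other libraries of their group, each in 7c replicate 4, by Dixon's test at the 95% level over 40 groups of 4 to 6 libraries, of which chance flags about 1 in 20. Hspa1a in kidney was 59.1 CPM, against 21.3 CPM in the next highest 7c kidney. Hspa1b in the same kidney was 91.4 CPM, against 37.7 CPM in the next. Hspa1a in liver was 5.01 CPM, against 1.83 CPM in the next 7c liver. Dnajb1 in 7c replicate 4 was also the highest of its group, at 75.6 CPM in kidney and 49.8 CPM in liver, without standing apart by the same measure. On log2 CPM, the scale of the spreads and correlations, 0 of the 40 groups held such a value: the gap to the next library was 0.424, 0.382 and 0.47 of the range for the 3 values in the order given, under the limit of 0.625 for 6 libraries.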

How the results depend on the processing

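None of the 10 genes passed under any alternative run for 7c in liver, 7c in kidney or the interaction, each library left out included. The number of genes called among all genes moved with the method. In liver it went from 1 to 4 with no filter, 2 with filterByExpr, 6 with DESeq2, 4 with both tissues in 1 fit and 0 to 2 without 1 library (0 without vehicle replicate 4; 2 without vehicle replicate 2 or 7c replicate 4). In kidney it went from 0 (463 at an unadjusted p under 0.05) to 3 with no filter, 18 with DESeq2, 2 with limma-voom, 18 with both tissues in 1 fit and 0 to 3 without 1 library, the most without 7c replicate 5. For the interaction it went from 1 to 11 with no filter, 4 with filterByExpr, 14 with DESeq2, 0 with limma-voom and 1 to 10 without 1 library, the most without kidney 7c replicate 6. With the replicate number as a block, the liver count fell to 0 and the interaction count to 0. Within a tissue this block joined 7c and vehicle libraries of the same number, which are different mice. The labels state no link between them, and their deviations had r of -0.036 to 0.024 in liver and -0.064 to 0.293 in kidney. For the interaction the block joined the liver and kidney of the same treatment and number. Same-numbered livers and kidneys of a group deviated together with r of 0.011 to 0.259 (median 0.126). Of the 10 livers, each set against all 10 kidneys, 8 matched best the kidney of their own group and number. Equal numbers may thus mark 1 mouse, which the labels do not state, and the main fits did not take them as pairs.

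Signs of small effects turned. In kidney, Hsp90aa1 was -0.0019 with limma-voom and -0.0868 to 0.143 without 1 library, and Hspe1 -0.0259 to 0.279. In liver without 1 library, Hspa1a ran from -0.32 to 1.65, Hspa1b from -0.0744 to 1.03 and Bag3 from -0.113 to 0.296. For the interaction, Hspa1a was 0.394 with limma-voom, and without 1 library Hspa1a ran from -1.47 to 0.497, Hspa1b from -0.933 to 0.177, Hspa8 from -0.297 to 0.176, Hsph1 from -0.0755 to 0.527, Dnajb1 from -0.112 to 0.239, Hsp90aa1 from -0.0212 to 0.278 and Bag3 from -0.395 to 0.0337. Between vehicle tissues, Hspd1 was -0.00262 with RLE, -0.00264 with DESeq2 and -0.539 on library totals, Hspa1b -0.0153 when summed with Hspa1a and -0.173 on library totals, and Hspe1 -0.352 on library totals. Without 1 library, Hspa1b ran from -0.159 to 0.74, Dnajb1 from -0.265 to 0.083 and Hspd1 from -0.0607 to 0.135. The members called numbered 3 to 6 over the other alternatives and 2 to 4 without 1 library (2 without kidney vehicle replicate 4), and with the replicate block Hsph1 passed as higher in kidney (-0.769, adjusted p = 0.00218). The cause of these moves was not tested.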

Other observations

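Immediate early genes, which rise within minutes of handling or injury, and clock genes were read as further lists. With 7c, 0 of either passed in either tissue. In liver, 12 of 14 immediate early genes tested had a log2 fold change below 0 (median -0.32, against 0.002 for all genes), and the lowest unadjusted p was that of the phosphatase gene Dusp1 (-0.96, unadjusted p = 0.00471, adjusted p = 1.00 by edgeR). In kidney, 8 of 15 lay below 0 (median -0.01), and Atf3, a stress-induced transcription factor, came nearest to the threshold (1.17, unadjusted p = 0.00731, adjusted p = 0.997 by edgeR). For Atf3 the log2 effect in liver less that in kidney was -1.87 and did not pass (unadjusted p = 0.00571, adjusted p = 1.00 by edgeR). The clock genes had 10 of 15 log2 fold changes above 0 in liver and 9 of 15 in kidney, with Clock (-0.37, unadjusted p = 0.0248) and Per1 (0.77, unadjusted p = 0.086) by edgeR nearest to the threshold. The summed clock gene level of the 7c livers lay on both sides of the vehicle range of 349 to 434 CPM, at 296, 321 and 241 CPM in replicates 1 to 3 and at 514, 601 and 784 CPM in replicates 4 to 6. In kidney, 7c replicates 4 to 6 (807, 872 and 1034 CPM) lay above the vehicle range of 522 to 789 CPM and replicates 1 to 3 (550, 532 and 572 CPM) within it. The mean scaled level of the 10 members in these livers was -0.287, 0.412 and 0.917 in replicates 1 to 3 and 0.73, -0.181 and -0.349 in replicates 4 to 6, which overlapped.

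Between the vehicle tissues, 5 of 15 immediate early genes passed, among them Zfp36 (log2 ratio of liver to kidney 1.54), Ier2 (1.34) and Ier3 (-4.44), and 10 of 15 clock genes, among them Cry1 (3.51), Clock (1.27) and Tef (-1.30), against 53.4% of all genes.

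The genes whose log2 CPM followed the mean scaled level of the 10 members most closely over the 10 libraries of a tissue are given as a description, with no test. In liver, among 12617 genes, they were Gm826 (r = 0.917), the ciliary kinase gene Cilk1 (0.904), Rasal2 (0.884), the acute-phase gene Saa1 (0.881) and the splicing regulator gene Tra2a (0.862). In kidney, among 14228 genes, they were Efcab12 (0.917), Fbxo46 (0.892), the mitochondrial cysteinyl-tRNA synthetase gene Cars2 (0.891), Hnrnph3 (0.885) and Naip2 (0.882). No gene was in both groups of 5.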
